A study of Mus musculus with 36 samples.

Results

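Spp1, Gpnmb, Lgals3, Lgals1 and Fabp5 are 5 of the 20720 genes in the count tables of a mouse heart study, and they were found by their symbols. Spp1 encodes osteopontin, a secreted matrix protein that binds integrins and CD44. Gpnmb encodes a transmembrane glycoprotein of macrophage lysosomes and the cell surface. Lgals3 and Lgals1 encode galectins, lectins that bind glycans with galactose inside and outside the cell, and Fabp5 encodes an intracellular carrier of fatty acids. The 5 genes were chosen by their levels across cells, groups and days in these same tables, and the exact values used for the choice are not given in the sources used here, so the levels below describe the data and carry no test of the 5 genes themselves.

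The animals were male C57BL/6 mice (C57BL/6 J in the methods), 8 weeks old, and the cells came from the infarct region of the left ventricle and, under the same tissue label, from sham hearts. Ischemia-reperfusion (IR) was made by closing the left anterior descending artery for 1 hour, and hearts were sampled after 1 day (9 plates), 3 days (7 plates) and 14 days (3 plates). Permanent ligation (MI) was sampled after 3 days (5 plates), and sham surgery after 1 day (4 plates) and 14 days (8 plates). The labels list no sham group at day 3, and the MI plates came with their own protocol labels, so plate batch and permanent ligation cannot be told apart. The methods name 3 mice per condition for hearts 3 days after sham or MI surgery, and give no such number for IR. They do not tie plates to mice, so plates that share a mouse may have made the p-values too small.

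Single cells were sorted into multiwell plates and sequenced by SORT-seq, which counts transcripts by their unique molecular identifiers (UMIs). Of 13824 wells, 3146 held at least 1000 UMIs, and plate totals ran from 176614 to 5551870 UMIs. The MI wells were deeper than the others, with a median of 13120 UMIs per well against 2217 to 3230 in the other groups. The profiles of 42 wells matched the same well of another plate, and the shallower well of each pair was removed. Of these, 19 were shared by sham day 14 replicate 2 and IR day 3 replicate 6 and were kept in the latter, and which plate they belong to is not known. They include 7 of the 8 macrophage-like cells of IR day 3 replicate 6. In addition, 2 of the sham day 14 deposits held the same plate, so they were counted as 1. Levels are UMIs per 1000000 nuclear-encoded UMIs of the cells summed (CPM), given as mean ± SD over plates with at least 5 cells of a class. Classes were named from marker lists that hold none of the 5 genes, and the clustering also left the 5 genes out.

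Macrophages clear dead cells after infarction and are known to switch from an inflammatory to a lysosome-rich, lipid-handling state as they do so. Osteopontin, GPNMB and galectin-3 are commonly used marks of that later state. Fibroblasts of the infarct proliferate and deposit scar matrix, and galectin-1 is widely expressed in such stromal cells. Capillary endothelium of the heart takes up fatty acids and is known to express FABP4 and FABP5.

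The 5 genes lie on 5 chromosomes (GRCm38, all on the plus strand). Spp1 spans chr5:104435118-104441050, Gpnmb chr6:49036546-49070929, Lgals3 chr14:47367751-47386160, Lgals1 chr15:78926725-78930465 and Fabp5 chr3:10012548-10016607. RefSeq promoter windows of build GRCm38.p6, 250 bases before to 50 bases after the start, were matched for 3 of the 5 genes. The windows of Spp1 (chr5:104434861-104435160, 1 of its 2 listed windows) and Gpnmb (chr6:49036268-49036567) are shown because the levels of these 2 genes separated in macrophage-like cells of IR day 1. Capitals mark a PU.1 core (GAGGAAGT) in Spp1 and an AP-1 site (TGANTCA) in Gpnmb.
Spp1: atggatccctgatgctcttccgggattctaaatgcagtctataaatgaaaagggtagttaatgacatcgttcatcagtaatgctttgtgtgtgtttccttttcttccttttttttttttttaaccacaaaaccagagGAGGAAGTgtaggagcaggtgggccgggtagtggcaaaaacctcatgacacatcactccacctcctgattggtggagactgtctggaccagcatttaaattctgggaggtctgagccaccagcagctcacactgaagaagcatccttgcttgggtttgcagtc
Gpnmb: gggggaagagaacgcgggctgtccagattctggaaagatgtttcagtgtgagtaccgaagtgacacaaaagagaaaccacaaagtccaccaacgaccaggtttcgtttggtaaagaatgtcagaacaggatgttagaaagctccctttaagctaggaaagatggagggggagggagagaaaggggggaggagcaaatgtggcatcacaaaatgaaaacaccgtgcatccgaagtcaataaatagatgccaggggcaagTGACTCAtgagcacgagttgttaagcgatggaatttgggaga
The PU.1 core of Spp1 began at -113 from the start, and both strands were searched. The AP-1 match of Gpnmb began at 9 bases after the start. Of 32851 promoter windows of this length, 3.2% held the PU.1 core and 7.81% held the AP-1 site. The M-box CATGTG (14.2% of windows) and the PPAR motif AGGTCA (16.3%) had no match in the windows of Spp1, Gpnmb or Lgals3. The broader E-box CANNTG matched in each of these 3 genes and in 72.3% of all windows.

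At IR day 1, IR day 3 and MI day 3, Spp1, Gpnmb and Lgals3 transcripts came mostly from macrophage-like cells, while Lgals1 and Fabp5 did not keep to that class in every group. At IR day 3, macrophage-like cells held 82.7% of all Spp1 UMIs, 91.6% of Gpnmb, 93.0% of Lgals3, 65.5% of Lgals1 and 89.6% of Fabp5, with 49.5% of all nuclear UMIs. At MI day 3 they held 78.9% of Spp1, 85.7% of Gpnmb and 86.2% of Lgals3, with 39.5% of nuclear UMIs. In the MI hearts 58.2% of Lgals1 UMIs were instead in fibroblast-like cells, which gave 40.8% of nuclear UMIs. In sham hearts at day 1, endothelial-like cells held 76.5% of Fabp5 UMIs while macrophage-like cells held 97.8% of Spp1 and 96.0% of Lgals3. Gpnmb had only 6 UMIs in all cells of sham day 1, 2 of them in macrophage-like cells. At IR day 14 the 5 macrophage-like cells held none of 35 Spp1 and 21 Gpnmb UMIs and 29.0% of 62 Lgals3 UMIs. There, 77.1% of Spp1 UMIs were in unnamed wells and 66.1% of Lgals3 UMIs were in cardiomyocyte-like cells, which gave 65.5% of nuclear UMIs. These 41 Lgals3 UMIs lay in 8 of 357 cardiomyocyte-like cells, and 36 of them were in replicate 3.

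**Figure D1:**
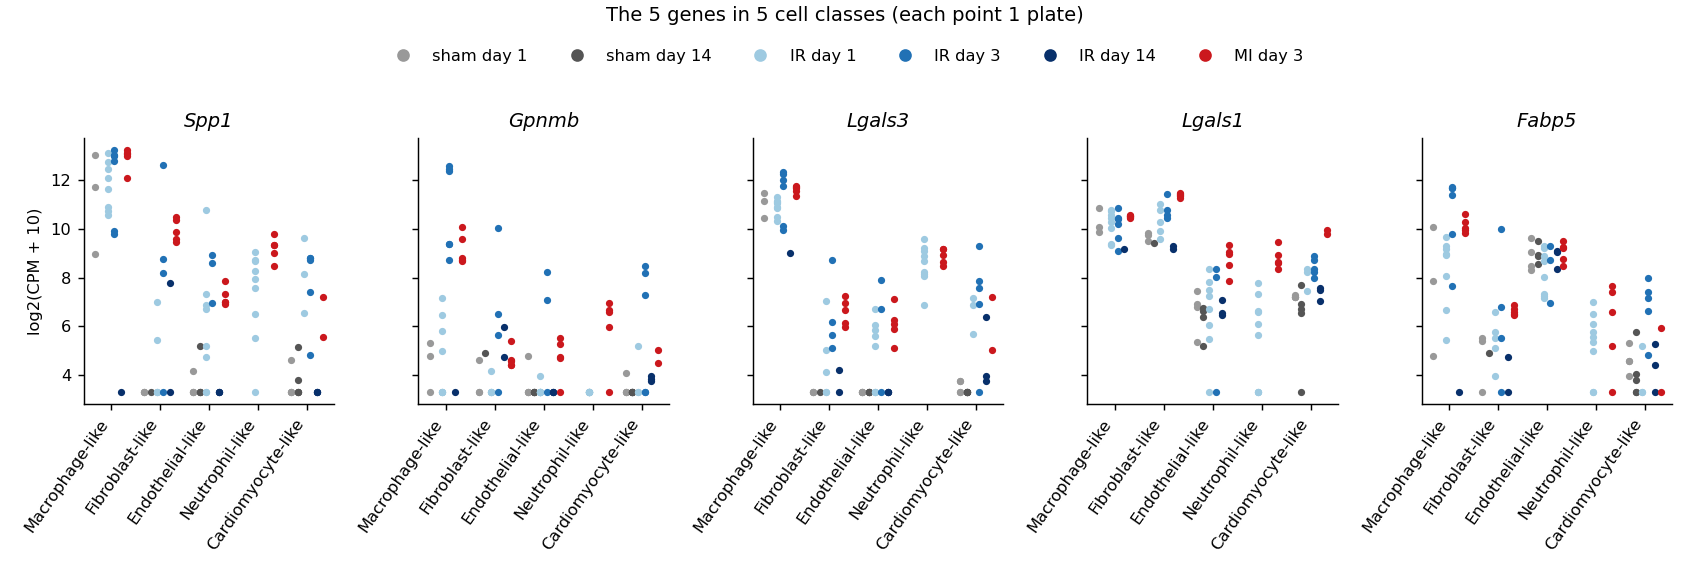
Level of each gene as log2(CPM + 10) in macrophage-like, fibroblast-like, endothelial-like, neutrophil-like and cardiomyocyte-like cells, each point 1 plate with at least 5 cells of the class and colours marking the 6 groups. Spp1, Gpnmb and Lgals3 reach their highest values in macrophage-like cells, Lgals1 is high in fibroblast-like cells too, and Fabp5 in endothelial-like cells overlaps across all groups.

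Macrophage-like cells numbered 19 at sham day 1, 5 at sham day 14, 97 at IR day 1, 183 at IR day 3, 5 at IR day 14 and 235 at MI day 3. Their summed macrophage markers (10 of the 11 listed were in the tables) were 13131 CPM at sham day 1 (10830 to 17902 over plates), 8915 at IR day 1 (3632 to 11737), 14023 at IR day 3 (13464 to 20641) and 10827 at MI day 3 (8892 to 13076). The class was made up of different clusters in each group, named here by leading genes. At IR day 1, 53 cells were of a Cxcl3 and Ccr2 group. At IR day 3, 136 were of a group led by Ifi202b, Ms4a7 and Atp6v0d2. At MI day 3, 61 were of the Cxcl3 group, 45 of an Fcna and Lyve1 group, 44 of an Hmox1 and Trem2 group and 33 of a cycling group. Other groups are not described here.

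Spp1, the secreted ligand of the set, was already high in macrophage-like cells of day 1 and stayed so at day 3. The 8 plates of IR day 1 held 1517 to 8983 CPM with a mean of 4287 ± 2722 (SD). The 6 plates of IR day 3 held 966, 874, 9626, 8461, 8209 and 7132 CPM (5878 ± 3921), and the 5 plates of MI day 3 held 8916, 8232, 4354, 8706 and 9626 CPM (7967 ± 2081). The groups overlapped, and replicates 1 and 3 of IR day 3, with 5 and 17 cells and 22 and 23 Spp1 UMIs, lay below every IR day 1 plate. In the edgeR fit, which used plates with at least 10 macrophage-like cells (IR day 1 replicates 3, 4, 7 and 8, IR day 3 replicates 3, 4 and 7, and all MI plates), the log2 difference of IR day 3 from IR day 1 was 0.38 ± 0.55 (SE). With 1 plate left out it ran from -0.17 without IR day 3 replicate 4 to 0.94 without IR day 1 replicate 3, and it was 0.90 without IR day 3 replicate 3. That of MI from IR day 1 was 0.77 ± 0.49.

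Spp1 also varied in the sham hearts. The 3 sham day 1 plates with enough cells held 3352, 8491 and 499.7 CPM. Of 19 macrophage-like cells there, the 13 of the Fcna group, a group that also expressed the resident macrophage genes Lyve1, Cd163 and Folr2, held 2 Spp1 UMIs, and the other 6 held 670. At IR day 14 a single plate had 5 such cells, all of the Fcna group, with no Spp1, Gpnmb or Fabp5 UMI.

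Gpnmb, the lysosomal and surface glycoprotein, separated the days far more than Spp1. Its levels at IR day 1 were 22.0, 135, 0, 77.6, 0, 0, 0 and 46.0 CPM (replicates 1 and 3 to 9). With replicate 2, which had under 5 cells, the group held 63 UMIs in 97 cells, with at most 11 in any cell. At IR day 3 they were 659, 418, 5313, 655, 6206 and 5711 CPM (3160 ± 2845), and at MI day 3 they were 404, 1079, 438, 415 and 770 CPM (621 ± 298). Every day 3 plate of either injury lay above every IR day 1 plate, and the IR day 3 plates fell into 3 from 5313 to 6206 and 3 from 418 to 659. Without replicate 6, the highest of them and the plate with the shared wells, the IR day 3 mean was 2551 ± 2708 CPM (n = 5). Pooled over cells, the IR day 3 level was 86.0 times that of IR day 1 (95% counting interval 67.1 to 112), and the MI level was 0.120 times that of IR day 3 (0.116 to 0.125). These intervals leave out the spread between plates. The MI and IR day 3 plates overlapped, since the 3 IR day 3 plates from 418 to 659 CPM lay within the MI range of 404 to 1079 CPM. The fitted log2 difference of IR day 3 from IR day 1 was 6.38 ± 0.87, and 40 of the 63 IR day 1 UMIs were in replicate 3. Without that plate the 3 remaining fitted IR day 1 plates held none, so no fold is given. The fitted difference of MI from IR day 3 was -2.69 ± 0.63.

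Lgals3, the galectin of phagocytes, was at closer levels in the 4 groups with most macrophage-like cells. The macrophage-like means were 2167 ± 710 CPM at sham day 1 (n = 3), 1941 ± 423 at IR day 1 (n = 8), 3278 ± 1823 at IR day 3 (n = 6) and 3172 ± 354 at MI day 3 (n = 5). All 5 MI plates (2626 to 3525 CPM) lay above all 8 IR day 1 plates (1263 to 2518 CPM), while the IR day 3 plates, at 1098, 988, 5143, 3525, 4839 and 4077 CPM, lay on both sides of them. The fitted log2 difference was 0.65 ± 0.38 for IR day 3 and 0.51 ± 0.34 for MI against IR day 1. The 5 Fcna group cells of IR day 14 held 511 CPM and those of sham day 14 held 161 CPM. The fitted IR day 3 difference was 1.11 without IR day 3 replicate 3 and 0.21 without replicate 4.

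Lgals1, the other galectin, was the steadiest of the 5 in macrophage-like cells. Its means were 1290 ± 487 CPM at sham day 1, 1246 ± 429 at IR day 1, 1175 ± 464 at IR day 3 and 1460 ± 46.8 at MI day 3, and the group ranges overlapped, those of IR day 3 and MI through IR day 3 replicate 6 (1839 CPM), the plate with the shared wells. The other IR day 3 plates held 532 to 1385 CPM and the MI plates 1408 to 1533 CPM, and the fitted log2 difference of MI from IR day 3 was 0.48 ± 0.31. The fitted log2 difference of IR day 3 from IR day 1 was -0.28 ± 0.32, and it was 0.04 ± 0.25 without IR day 3 replicate 3. That of MI from IR day 1 was 0.19 ± 0.28, and -0.01 without IR day 1 replicate 8.

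Fabp5, the fatty acid carrier, was higher at day 3 than at IR day 1, with smaller differences than Gpnmb. The macrophage-like mean was 442 ± 568 CPM at sham day 1, 419 ± 269 at IR day 1, 2287 ± 1396 at IR day 3 and 1148 ± 267 at MI day 3. At IR day 3 the plates held 878, 190, 3314, 3299, 3349 and 2690 CPM, and the low 2 were again replicates 1 and 3. All MI plates, at 895, 1573, 991, 1052 and 1231 CPM, lay above all IR day 1 plates (32.9 to 805 CPM). The fitted log2 difference from IR day 1 was 2.62 ± 0.57 for IR day 3 and 1.67 ± 0.52 for MI. That of MI from IR day 3 was -0.95 ± 0.51, with the MI plates inside the IR day 3 range, and it turned to 0.15 with plate numbers as a block and only these groups fitted. Pooled over cells, the IR day 3 level was 7.03 times that of IR day 1 (6.39 to 7.76).

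**Figure D2:**
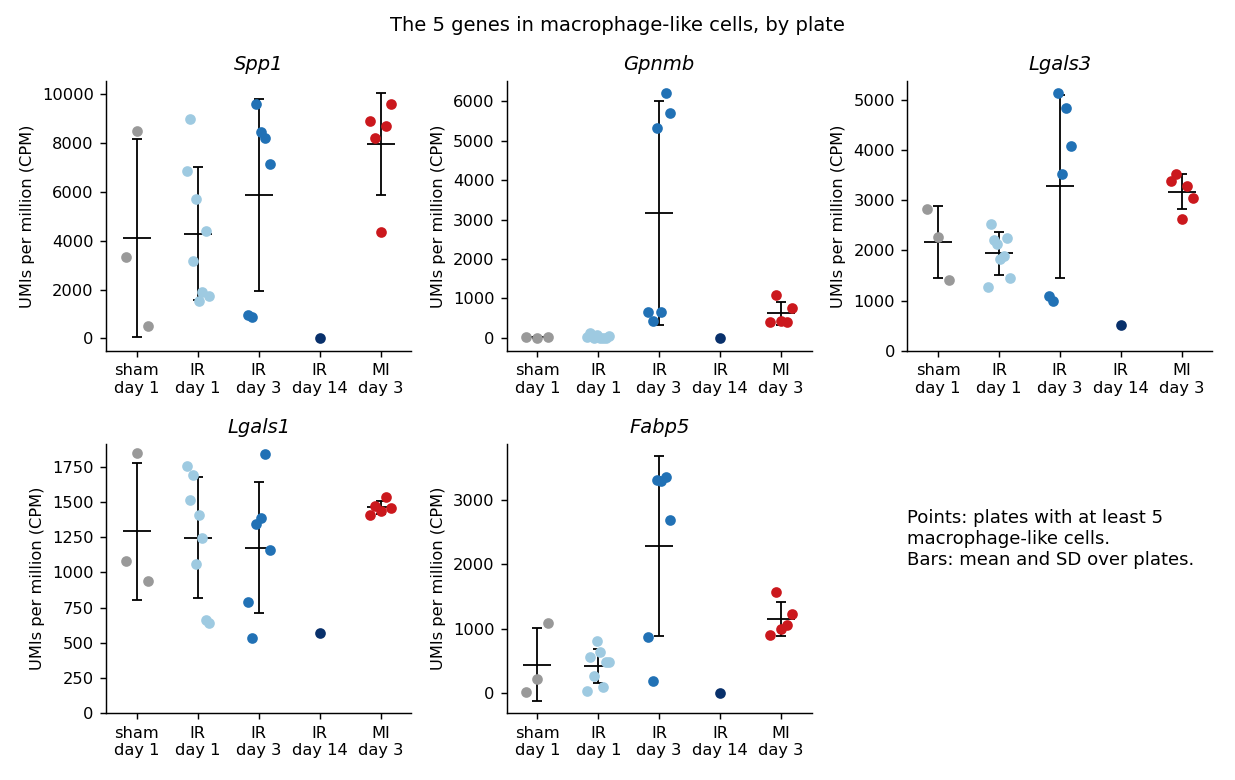
CPM of each gene in macrophage-like cells by plate, with the mean and SD over plates of each group. Gpnmb and Fabp5 are low in IR day 1 plates and reach 6206 and 3349 CPM in IR day 3 plates, whereas Lgals1 stays between 532 and 1846 CPM in all plates.

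The share of macrophage-like cells with a Gpnmb or Fabp5 transcript ran in the same order as the levels. After each cell was thinned to 1000 UMIs (no macrophage-like cell was shallower), Gpnmb was found in 3.09% of IR day 1 cells (Clopper-Pearson 95% interval 0.642 to 8.77), 66.1% of IR day 3 cells (58.8 to 72.9) and 26.8% of MI cells (21.3 to 33.0). Unthinned, the shares were 12.4%, 80.3% and 64.7% at median depths of 9396, 8609 and 23362 UMIs. Thinned shares for Fabp5 were 22.7%, 61.7% and 37.4%, and those for Spp1 were 53.6%, 79.8% and 73.6%. Lgals3 (67.0%, 79.2% and 81.3%) and Lgals1 (58.8%, 62.8% and 71.1%) differed less between the 3 groups. Spp1, Gpnmb and Lgals3 were found together in 3 of 97 thinned cells at IR day 1, 108 of 183 at IR day 3 (59.0%) and 52 of 235 at MI day 3 (22.1%). All 5 genes were found in 3, 62 and 28 of these cells. Cells are not replicates, and these intervals cover counting error only.

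**Figure D3:**
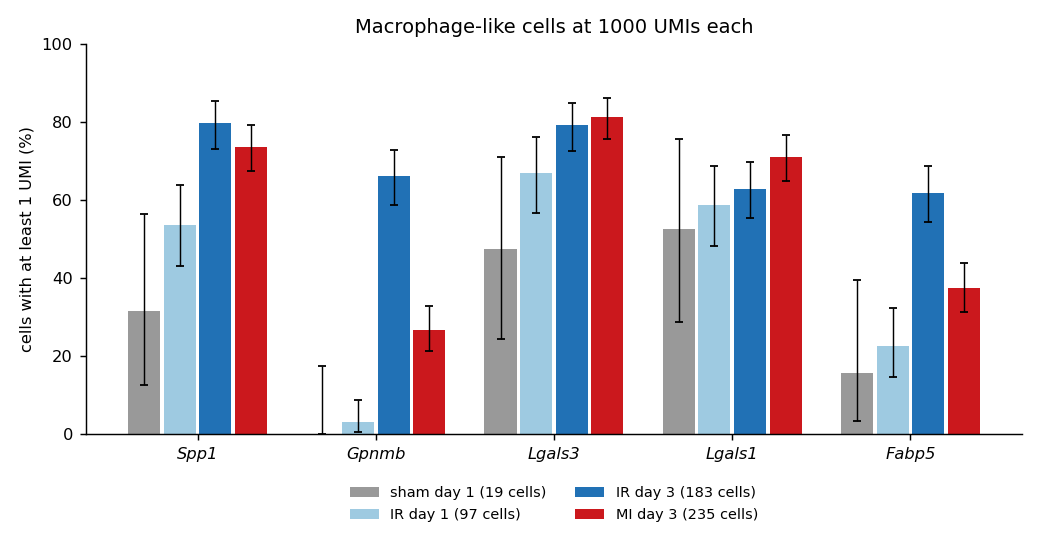
Share of macrophage-like cells with at least 1 UMI of each gene after thinning to 1000 UMIs per cell, with exact 95% binomial intervals. The Gpnmb share is 3.09% at IR day 1, 66.1% at IR day 3 and 26.8% at MI day 3, while the Lgals3 and Lgals1 shares of these groups differ less.

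For comparison, thinned cardiomyocyte-like cells of IR day 3 gave Gpnmb in 23.8%, Spp1 in 32.6% and Lgals3 in 24.2% of 298 cells (median depth 2456.5 UMIs). Their summed macrophage markers were 1001 CPM (240 to 1335 over plates), against 78.9 CPM (0 to 142) in sham cardiomyocyte-like cells. In replicate 4 these cells held 387 Spp1, 247 Gpnmb and 159 Lgals3 UMIs, beside 12690, 7004 and 6780 in the macrophage-like cells of that plate. In replicate 7 they held 142, 113 and 73, beside 4813, 3854 and 2751. In replicates 4 and 7 the order Spp1, Gpnmb, Lgals3 was the same in both classes. In replicate 6 it was not, with 25, 9 and 38 UMIs in cardiomyocyte-like cells beside 799, 604 and 471 in macrophage-like cells. It also differed in replicate 5, with 1, 0 and 6 beside 336, 26 and 140. At IR day 14, cardiomyocyte-like cells held 46.1 Lgals3 UMIs per 100 macrophage-marker UMIs, and macrophage-like cells 2.31. The first value rested on 41 Lgals3 UMIs in 8 of 357 cells, and the second on 5 cells of 1 plate. The part of free RNA or mixed wells in these values was not tested.

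Within the macrophage-like class the levels varied over the cell groups, of which only some are described here. Pooled Gpnmb was 6031 CPM in the Ms4a7 group of IR day 3 and 2151 CPM in the Hmox1 and Trem2 group of MI. Those 2 groups held 5124 and 5999 CPM of Lgals3 and 3464 and 2802 CPM of Fabp5. The 6 MI cells that fell into the Ms4a7 group held 3163 CPM of Gpnmb and 15062 CPM of Spp1.

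The Fcna group could be followed across conditions. Its pooled Spp1 level was 24.4 CPM in 13 cells of sham day 1, 172 in 12 cells of IR day 1, 1225 in 28 cells of IR day 3 and 2919 in 45 cells of MI day 3. Its Lgals3 level was 220, 897, 1367 and 2199 CPM in the same order, and its Gpnmb was 0, 0, 490 and 169 CPM. These pooled values hide uneven plates. At IR day 3, 6 cells on plates with fewer than 5 cells of the group held 122 of 155 Spp1, 53 of 62 Gpnmb and 127 of 173 Lgals3 UMIs. The 3 plates with at least 5 held 67.4 to 890 CPM of Spp1, against 465 to 3949 in the 5 MI plates, and 52.4 to 261 CPM of Gpnmb, against 26.3 to 439, so the plates overlapped for both genes. The 22 cells of those plates pooled to 867 CPM of Lgals3, with plates at 0 to 1466 CPM, so Lgals3 did not run in order from IR day 1 to IR day 3 without the 6 cells. In the Cxcl3 group, pooled Spp1 was 2544 CPM at MI day 3 (61 cells) and 5004 CPM at IR day 1 (53 cells), with plates of at least 5 cells at 1528 to 3479 and 2320 to 9412 CPM that overlapped, and pooled Lgals3 was 2180 and 2260 CPM.

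**Figure D4:**
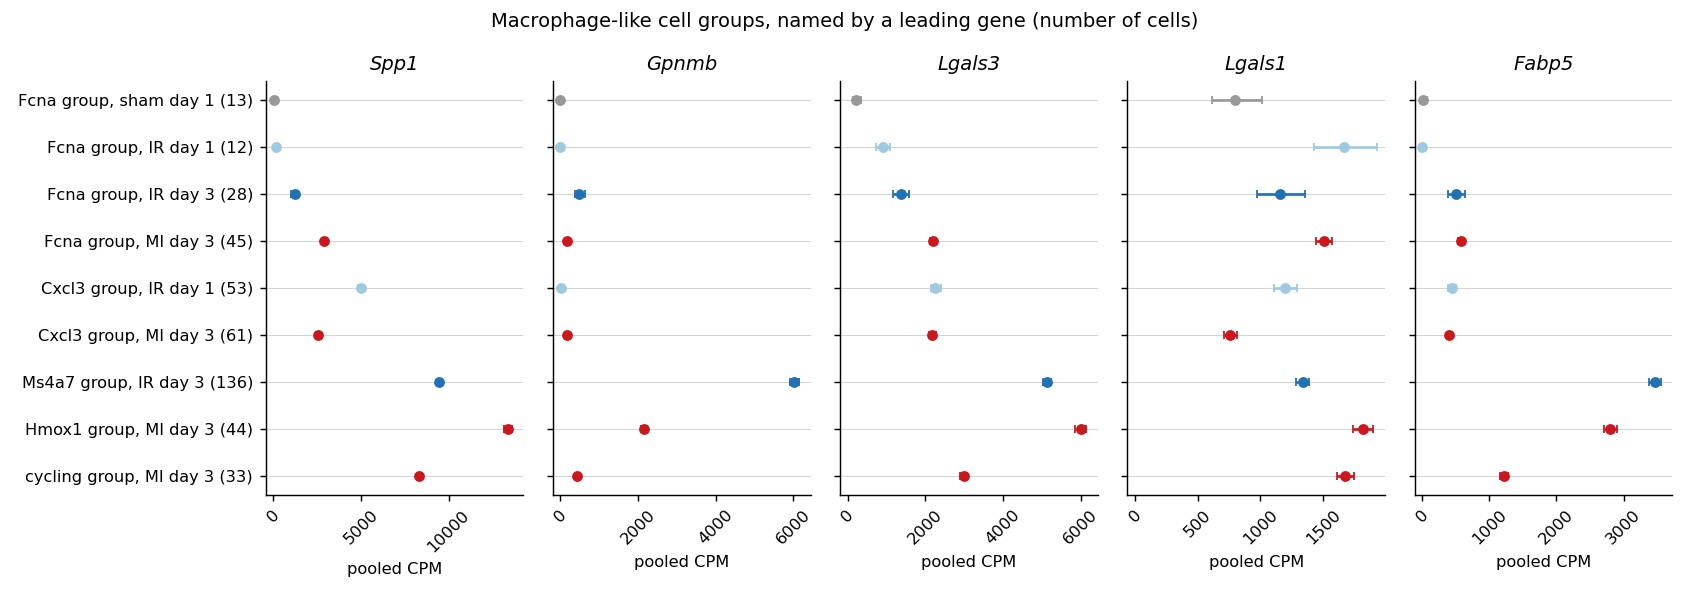
Pooled CPM of each gene in groups of macrophage-like cells, named by a leading gene and split by condition, with exact 95% Poisson intervals that cover counting error only. Among the groups plotted, Gpnmb is highest in the Ms4a7 group of IR day 3 (6031 CPM).

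Among single macrophage-like cells of IR day 3 (n = 183), the Spearman correlation of CPM was 0.70 between Spp1 and Gpnmb, 0.73 between Spp1 and Fabp5 and 0.76 between Lgals3 and Fabp5. At equal depth these were 0.61, 0.57 and 0.45. With Lgals1, Spp1 gave 0.28 and 0.18. At MI day 3 (n = 235) Gpnmb and Fabp5 gave 0.69 and 0.45, and Spp1 and Gpnmb 0.42 and 0.32. These cells share plates and depth, and the correlations are descriptions.

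Companion genes of the pathway were tested on the same macrophage-like plate sums, using 4 gene lists. The lists were written from general knowledge, with earlier results of these data known. Between IR day 3 and IR day 1, 17.2% of 8575 genes passed an edgeR quasi-likelihood adjusted p of 0.05, 8.21% higher and 9.04% lower, with a median log2 difference of 0.03 over all genes. Of 25 lipid and lysosome genes of phagocytes, 15 rose and 1 fell (median 1.22). They included lysosomal enzymes and lipid handlers, Cd63, Apoe, Lpl, Lipa, Abca1, Abcg1, Cd36, Ctsb, Ctsd, Ctsk, Lamp1, Psap, Grn, Npc2 and Atp6v0d2. The count of higher genes was 10 to 18 with any 1 plate left out.

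Abcg1, a cholesterol exporter, was 219 ± 33.1 CPM at IR day 3 (n = 3 plates) against 58.8 ± 5.80 at IR day 1 (n = 4), a log2 difference of 1.86 ± 0.25 (edgeR adjusted p = 6.88e-05). Atp6v0d2, a subunit of the proton pump that acidifies lysosomes, rose by 3.65 ± 0.50 (edgeR adjusted p = 8.74e-05), and it is a leading gene of the Ms4a7 group. Lipa, the lysosomal acid lipase, rose by 2.19 ± 0.31 (edgeR adjusted p = 0.000109). Msr1, a scavenger receptor, was the 1 gene of the list that fell, by 1.04 ± 0.26 (edgeR adjusted p = 0.00816), a call lost without IR day 3 replicate 7 (-0.94).

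Receptors and partners of the 5 proteins moved both ways, 5 of 13 tested higher and 3 lower (median 0.07). Sdc4, a proteoglycan of the cell surface, fell by 3.70 ± 0.40 on the log2 scale (edgeR adjusted p = 1.12e-05), from 486 ± 214 to 25.0 ± 21.7 CPM. Cd44, the hyaluronan receptor that also binds osteopontin, fell by 1.37 ± 0.33 (edgeR adjusted p = 0.00719), and the integrin chain Itga5 by 1.83 ± 0.61 (edgeR adjusted p = 0.0424). Itga4, an integrin chain that pairs with Itgb1 to bind osteopontin, rose by 1.61 ± 0.34 (edgeR adjusted p = 0.00322). The phagocytic receptors Mertk and Trem2 rose by 2.09 ± 0.56 and 1.58 ± 0.43 (edgeR adjusted p = 0.0132 and 0.0145). Left-out plates ended several of these calls. Mertk (1.93) and Cd44 (-1.22) were no longer past the threshold without IR day 3 replicate 7, Trem2 (1.06) without IR day 3 replicate 4 (it was 2.44 without IR day 1 replicate 3), and Itga5 without any 1 of the IR day 3 plates or without IR day 1 replicate 7 (-0.71; -2.82 without IR day 3 replicate 4). The count of higher genes was then 2 without either of IR day 3 replicates 4 and 7, and 3 without IR day 1 replicate 7 or 8.

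Of the family relatives, 5 were tested and 2 rose, the fatty acid carriers Fabp3 (2.60 ± 0.61, edgeR adjusted p = 0.00581) and Fabp4 (2.12 ± 0.51, edgeR adjusted p = 0.00728). Fabp3 is a heart muscle gene, and all 10 cardiomyocyte markers had UMIs in macrophage-like cells, with sums of 604 CPM at IR day 1 (143 to 1040 over plates), 3267 at IR day 3 (834 to 3667) and 271 at MI day 3 (157 to 754). Their part in the Fabp3, Fabp4, Cd36 and Lpl results of these comparisons was not tested, and Fabp3 was not past the threshold without IR day 3 replicate 4 (2.04), which left 1 relative higher, and stood at 3.78 without IR day 1 replicate 3. Of 13 transcription factors, 5 fell (median -0.88), and none rose in edgeR, at an unadjusted p under 0.05 or in DESeq2. Hif1a, the oxygen-responsive factor, fell by 2.05 ± 0.24 (edgeR adjusted p = 3.06e-05), from 430 ± 42.9 to 107 ± 6.39 CPM. Fosl2 and Fos, subunits of AP-1, fell by 2.12 ± 0.33 and 1.18 ± 0.25 (edgeR adjusted p = 0.00029 and 0.00261).

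Fewer genes passed between MI day 3 and IR day 1, 5.73% of 8575, 3.3% higher and 2.43% lower (median 0.04). With 1 plate left out the count ran from 215 to 769 here and from 752 to 1729 for IR day 3, so these ranges overlapped. Here 4 of 25 phagocyte genes rose and 1 fell (median 0.46). Lipa rose by 1.69 ± 0.28 (edgeR adjusted p = 0.00153), Apoe, the lipoprotein of macrophages, by 1.85 ± 0.36 (edgeR adjusted p = 0.00499) and Ctsd, a lysosomal protease, by 1.84 ± 0.42 (edgeR adjusted p = 0.0141). Cd9, a tetraspanin, fell by 0.87 ± 0.25 (edgeR adjusted p = 0.0404). Among receptors, Itgb5 rose by 1.19 ± 0.29 and Trem2 by 1.47 ± 0.38 (edgeR adjusted p = 0.0192 and 0.0279), while Sdc4 fell by 1.44 ± 0.26 (edgeR adjusted p = 0.00339). No family relative of 5 passed in edgeR or DESeq2 (1 at an unadjusted p under 0.05). Of 13 factors 3 passed, Tfec falling by 1.77 ± 0.34, Hif1a by 0.71 ± 0.18 and Fos by 0.75 ± 0.20 (edgeR adjusted p = 0.00402, 0.0271 and 0.0337). The calls of Itgb5 (1.02), Trem2 (1.17), Ctsd (1.72), Cd9 (-0.78), Hif1a (-0.63) and Fos (-0.60) were lost without IR day 1 replicate 8, and all of these but Ctsd also without at least 1 other plate. The count of higher phagocyte genes was 7 without IR day 1 replicate 3 and 2 without replicate 8, and Trem2 stood at 2.30 without replicate 3.

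Between the 2 injuries at day 3, 10.7% of 8575 genes passed, 5.88% higher in MI and 4.79% lower. Phagocyte genes were lower in MI for 7 of 25 and higher for 1 (median -0.51, against 0.03 for all genes). Abcg1 was lower by a log2 difference of -1.81 ± 0.18 (edgeR adjusted p = 3.15e-06), Atp6v0d2 by -3.17 ± 0.32 (edgeR adjusted p = 3.3e-06) and Lpl, lipoprotein lipase, by -1.95 ± 0.37 (edgeR adjusted p = 0.00167). Hmox1, which breaks down heme, was higher in MI, at 3367 ± 797 against 906 ± 444 CPM (1.82 ± 0.38, edgeR adjusted p = 0.00371). The count of lower genes was 13 without IR day 3 replicate 3 and 4 without replicate 7.

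Sdc4 was higher in MI by 2.26 ± 0.37 (edgeR adjusted p = 0.000496), and Mertk and Lgals3bp, a secreted galectin ligand, were lower by -1.49 ± 0.34 and -1.34 ± 0.35 (edgeR adjusted p = 0.00677 and 0.0192). The family relatives Fabp3 (-2.84 ± 0.39, edgeR adjusted p = 9.27e-05), Fabp4 (-1.67 ± 0.41, edgeR adjusted p = 0.012) and Lgals9 (-0.81 ± 0.24, edgeR adjusted p = 0.0329) were lower, 3 of the 5 tested. Of the factors, Hif1a (1.34 ± 0.23, edgeR adjusted p = 0.000677) and Fosl2 (1.61 ± 0.31, edgeR adjusted p = 0.00187) were higher in MI and the lipid-sensing receptor Pparg was lower (-1.56 ± 0.41, edgeR adjusted p = 0.0192). Without IR day 3 replicate 7 the calls of Mertk (-1.32), Lgals3bp (-1.04), Fabp4 (-1.51), Lgals9 (-0.63) and Pparg (-1.44) were lost, and without replicate 4 that of Fosl2 (1.35), while Fabp3 stood at -2.24. The count of lower relatives was 1 without either of these plates, and no receptor was lower without replicate 7.

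Fibroblast-like cells numbered 36 in sham hearts (both days), 50 at IR day 1, 56 at IR day 3, 17 at IR day 14 and 132 at MI day 3. Sham cells were of a Pi16 and Dcn cluster, and 131 of 132 MI cells were of a Timp1, Tnc and Col1a1 cluster. Lgals1 was the member that these cells expressed in every group. Its level was 790 ± 99.2 CPM in sham hearts (n = 4 plates), 1357 ± 549 at IR day 1 (n = 5), 1853 ± 622 at IR day 3 (n = 4), 600 ± 33.2 at IR day 14 (n = 2) and 2675 ± 166 at MI day 3 (n = 5). The MI plates, at 2598, 2803, 2678, 2856 and 2441 CPM, lay above all sham, IR day 1 and IR day 14 plates, and 1 IR day 3 plate (2759 CPM) lay among them. Pooled over cells, MI was 3.52 times sham (3.02 to 4.11). In all 5 MI plates, Lgals1 was higher in fibroblast-like than in macrophage-like cells.

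Spp1 was present in MI fibroblast-like cells and was not detected in sham ones. The 5 MI plates held 1310, 1414, 928, 763 and 701 CPM (1023 ± 322), and the 36 sham cells held 0 UMIs, which allows up to 13.4 CPM. The pooled MI level was at least 79.0-fold higher. The IR day 1 plates held 117, 33.4, 0, 0 and 0 CPM, and IR day 14 had 105 ± 148 (n = 2). Expression was uneven over cells, since the 14 highest of 132 MI cells held 62.3% of the summed CPM, and the median cell held 216 CPM. A single MI cell of replicate 2 had 1419 Spp1 UMIs with 1029 fibroblast-marker and 11 macrophage-marker UMIs, and without it that plate held 444 CPM.

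Macrophage transcripts were present in these wells too. The summed macrophage markers of MI fibroblast-like cells were 314 CPM (296 to 354 over plates), against 10827 CPM in macrophage-like cells. Per 100 macrophage-marker UMIs, MI fibroblast-like cells held 198 to 469 Spp1 UMIs and macrophage-like cells 47.7 to 108, the first being higher in 5 of 5 plates. For Gpnmb the fibroblast-like value was higher in 3 of 5 plates, with ranges of 3.60 to 10.5 and 3.18 to 10.5 that overlapped. For Lgals3 it was also higher in 3 of 5 plates, with pooled values of 29.3 and 29.8. Lgals1 and Fabp5 were higher per marker UMI in fibroblast-like cells in 5 of 5 plates.

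At IR day 3 the fibroblast-like values rested on 1 cell. Spp1 was 0, 6377, 423 and 279 CPM in replicates 3, 4, 5 and 7, and Gpnmb was 40.7, 1032, 0 and 81.0 CPM. A single cell of replicate 4 held 1751 Spp1, 269 Gpnmb and 276 Fabp5 UMIs of 76990, with 681 UMIs of 10 macrophage markers beside 3904 fibroblast-marker UMIs. Without it the pooled Spp1 level of the group went from 3655 to 173 CPM and Gpnmb from 599 to 71.1 CPM. The fitted log2 difference of MI from IR day 3 was -0.98 ± 0.84 for Spp1 with all cells and 2.33 ± 0.68 without this cell. Gpnmb was lower in MI in both fits (-4.59 ± 0.59 and -2.01 ± 0.57). Without the cell, 30 Gpnmb UMIs were left in 55 IR day 3 cells. Those plates then held 40.7, 89.5, 0 and 81.0 CPM, on both sides of the MI plates (11.4 to 31.7). With the cell, pooled Gpnmb per 100 macrophage-marker UMIs was 36.9, against 37.7 in macrophage-like cells, and it was higher in 2 of 4 plates. Lgals3 and Fabp5 turned from -1.13 ± 0.55 and -2.14 ± 0.55 to 0.38 and 1.04 ± 0.48, and Lgals1 gave 0.50 ± 0.29 and 0.52.

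**Figure D5:**
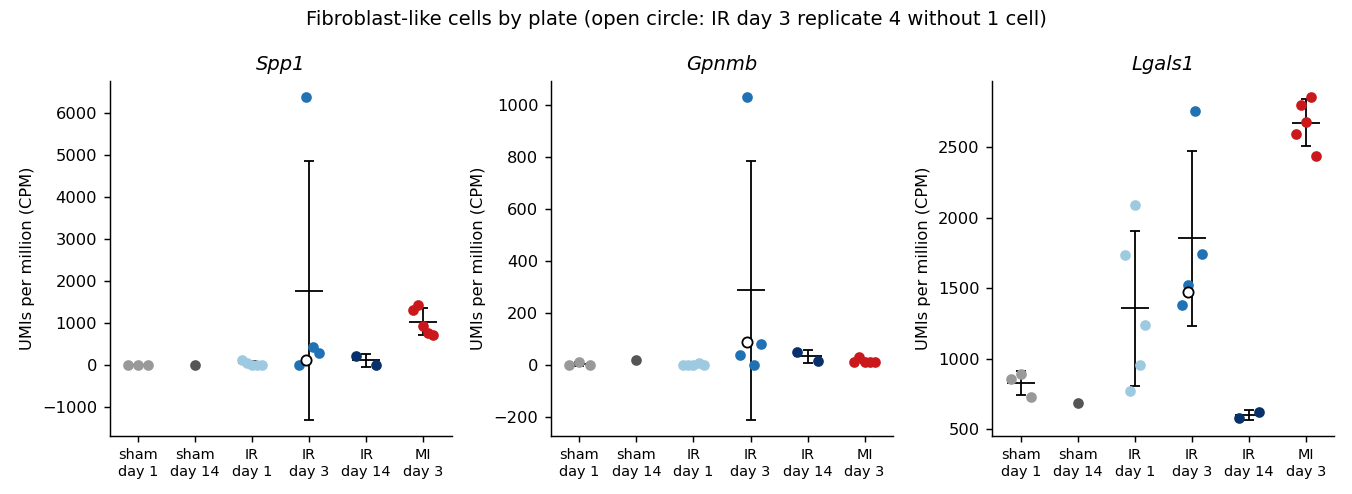
CPM of Spp1, Gpnmb and Lgals1 in fibroblast-like cells by plate, with mean and SD over plates, and an open circle for IR day 3 replicate 4 after 1 cell was left out. The open circles sit at 114 CPM for Spp1 and 89.5 CPM for Gpnmb, whereas all 5 MI plates hold 701 to 1414 CPM of Spp1 and 2441 to 2856 CPM of Lgals1. The MI plates keep all their cells, and MI replicate 2 held 444 CPM of Spp1 without its highest cell.

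In the fibroblast-like fit of MI against IR day 3, 8.27% of 5962 genes passed, 3.07% higher and 5.2% lower. This split moved with the settings. With another scaling (RLE) it was 134 higher and 382 lower in place of 183 and 310. With only these groups fitted it turned to 538 higher and 367 lower, and with plates of 10 cells to 755 higher and 566 lower. Of 12 receptors and partners, Sdc4 was higher (2.30 ± 0.49, edgeR adjusted p = 0.00353) and Lgals3bp and Trem2 lower (-1.45 ± 0.30 and -2.87 ± 0.78, edgeR adjusted p = 0.00248 and 0.0234). Of 23 phagocyte genes, 8 were lower and 1 higher (median -1.19), and without the 1 cell 3 of 21 were lower and 1 higher (median -0.52). Cd36 (-4.16 ± 0.50, edgeR adjusted p = 4.89e-06) and Lpl (-2.40 ± 0.42, edgeR adjusted p = 0.000584) stayed called without that cell, and Atp6v0d2 (-5.81 ± 0.97, edgeR adjusted p = 0.000451) and Trem2 were no longer tested. Without IR day 3 replicate 4, Cd36 stood at -3.28, Lpl at -1.81, Fabp3 at -3.44, Fabp4 at -0.09 and Hmox1 at 3.45, and without MI replicate 2 Fabp3 stood at -4.96. The count of lower phagocyte genes was 2 without IR day 3 replicate 4 and 14 without replicate 5, and the Trem2 call was also lost without MI replicate 1, 3 or 4. Hmox1 was higher in MI (2.31 ± 0.65, edgeR adjusted p = 0.0275), a call lost without MI replicate 3 (1.81) or IR day 3 replicate 3 or 7. Fabp3 (-4.33 ± 0.60, edgeR adjusted p = 2.93e-05) and Fabp4 (-1.61 ± 0.46, edgeR adjusted p = 0.0293) were lower, and Fabp4 stood at 0.04 without the cell. Summed cardiomyocyte markers of these cells were 6097 CPM at IR day 3 (1241 to 6768 over plates) and 126 CPM at MI day 3 (24.7 to 214), and their part in the Cd36, Lpl, Fabp3 and Fabp4 results was not tested. None of 8 transcription factors passed in edgeR or DESeq2, and none had an unadjusted p under 0.05 (median 0.36).

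Endothelial-like cells expressed Fabp5 in every group. Its mean was 502 ± 172 CPM in sham hearts (n = 8 plates), 344 ± 202 at IR day 1 (n = 8), 386 ± 259 at IR day 3 (n = 3), 459 ± 123 at IR day 14 (n = 3) and 538 ± 153 at MI day 3 (n = 5), and all ranges overlapped. The fitted log2 difference of MI from sham was -0.13 ± 0.30, and up to 0.05 with 1 plate left out. Lgals1 was higher in MI, at 527, 486, 649, 360 and 225 CPM (449 ± 163) against 27.1 to 167 CPM in sham plates (87.8 ± 45.1), with no overlap and a fitted difference of 2.35 ± 0.30.

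Phagocyte members were low in these cells. Spp1 was 144 ± 47.6 CPM at MI day 3 and a single UMI was found in the 180 sham cells (another was in the second deposit of the duplicated plate, which this count leaves out and the plate levels average), while Lgals3 was 66.0 ± 39.3 CPM in MI and had no UMI in sham cells (up to 3.34 CPM), so MI was at least 21.4-fold higher. Their summed macrophage markers were 619 CPM in MI (365 to 912) and 378 CPM in sham hearts (20.2 to 3272). Per 100 macrophage-marker UMIs, Spp1 was below the macrophage-like value in all 5 MI plates (12.8 to 60.0), and Lgals1 and Fabp5 were above it in all 5.

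The endothelial-like fit called 30.6% of 5789 genes, 17% higher and 13.5% lower in MI (median 0.09). Of 10 receptors, 5 rose and none fell (median 1.06, with 2 lower at an unadjusted p under 0.05 and none in DESeq2), led by Itgb3, whose product pairs with integrin alpha V to bind osteopontin (4.33 ± 0.59, edgeR adjusted p = 2.2e-06), Cd44 (2.79 ± 0.55, edgeR adjusted p = 0.00027) and Itgb1 (0.95 ± 0.20, edgeR adjusted p = 0.000524). Of 21 phagocyte genes, 5 rose and 2 fell. Hmox1 (4.56 ± 0.54, edgeR adjusted p = 2.41e-07), Ctsb (1.45 ± 0.23, edgeR adjusted p = 1.38e-05) and Cd63 (1.81 ± 0.33, edgeR adjusted p = 9.23e-05) rose, and Lpl and Cd36 fell by 4.65 ± 0.33 and 3.27 ± 0.28 (edgeR adjusted p = 1.78e-11 and 9.32e-10). The relatives Fabp3 and Fabp4 fell by 8.68 ± 0.58 and 1.59 ± 0.23 (edgeR adjusted p = 4.72e-12 and 4.89e-06), Fabp4 from 8695 ± 2230 to 2822 ± 349 CPM, while Fabp5 of the same family did not pass. Cardiomyocyte markers of endothelial-like cells summed to 23673 CPM in sham hearts (12162 to 39985 over plates) and 167 CPM in MI hearts (47.7 to 290), and their part in the Fabp3, Lpl and Cd36 results was not tested. Itgb3 stood at 5.99 without sham day 14 replicate 5 and Hmox1 at 3.79 without MI replicate 4. Fosl2 and Hif1a rose by 1.89 ± 0.34 and 1.10 ± 0.29 and Pparg fell by 2.28 ± 0.54 (edgeR adjusted p = 8.72e-05, 0.0049 and 0.00174), 3 of 9 factors tested.

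Neutrophil-like cells, 105 at IR day 1 and 49 at MI day 3, carried Spp1 and Lgals3 at low levels. Spp1 was 240 ± 183 CPM at IR day 1 (n = 9) and 603 ± 193 at MI day 3 (n = 5), and Lgals3 was 409 ± 200 and 470 ± 103 CPM, with overlapping plates for both. Lgals1 did not overlap, at 0 to 210 CPM and 317 to 691 CPM. Gpnmb had no UMI in IR day 1 cells and 68.9 ± 44.3 CPM in MI cells. Macrophage markers summed to 3346 CPM (2187 to 7316) at IR day 1 and 2247 CPM (1752 to 2847) at MI day 3, with Ms4a7 at 0 in both groups, and their part in these levels was not tested.

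Cardiomyocyte-like cells held the members at low levels after injury. Spp1 was 4.90 ± 9.11 CPM in sham hearts (n = 9 plates), 383 ± 368 at IR day 1 (n = 3), 294 ± 194 at IR day 3 (n = 5) and 86.9 ± 69.2 at MI day 3 (n = 2), and the 357 cells of IR day 14 had none. Lgals1 was 116 ± 54.5 CPM in sham hearts, 346 ± 89.4 at IR day 3 and 930 ± 61.2 at MI day 3, where 2 plates of 6 cells held 887 and 973 CPM. Pooled over cells, MI was 9.33 times sham (7.76 to 11.2). Macrophage markers summed to 279 CPM in those MI cells and 78.9 CPM in sham cells.

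Over 106 plate-by-class sums and 3794 genes, the genes whose levels were most like each member by Spearman correlation of log2(CPM + 10) followed the classes. Genes close to Spp1 included Lgals3 (0.83) and Cstb (0.77). Gpnmb was closest to Pld3 (0.68), Trem2 (0.68) and Ctsb (0.67). Lgals3 was closest to Fermt3 (0.86), Ccl6 (0.86) and Ccl4 (0.85). Lgals1 was closest to Myof (0.78), Lrp1 (0.76) and S100a4 (0.76), and Fabp5 to Nrp2 (0.72), Lgals9 (0.68) and Sdc3 (0.67). Within 23 macrophage-like plate sums the closest gene was Psap for Gpnmb (0.90), Ctsl for Lgals3 (0.86), Ftl1 for Fabp5 (0.84), Ndufb11 for Spp1 (0.82) and E430025E21Rik for Lgals1 (0.80). The sums share plates, depth and cell mixtures, so these values are descriptions.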

How the data were processed

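The authors deposited 1 table of UMI counts per plate, with genes in rows and wells in columns, made by mapping reads with BWA, and the submitters' processing notes name GRCm38 and mm10. All 174110208 deposited counts were whole numbers. No column belonged to another series. Whether reads of processed copies of Fabp5 and Lgals1 were counted with these genes is not given in the sources used here.

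Wells with at least 1000 nuclear-encoded UMIs were clustered without the 5 genes (scanpy 1.11.5, 2000 genes, 30 components, 15 neighbours, leidenalg 0.10.2 at resolution 1), and classes were named from marker lists. A named cluster whose 10 leading genes held more markers of another class than of its own was clustered again, and parts led by B cell markers stayed unnamed. No doublet caller was run, and copied wells were removed. The replicate is the plate, counts of a class were summed per plate, and groups came from the labels.

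Plate sums with at least 10 cells (5 for fibroblast-like) were tested with the quasi-likelihood test of edgeR 4.0.16 (R 4.3.3, TMM scaling, filterByExpr, groups of a class fitted together) with Benjamini-Hochberg adjustment over all genes tested, and DESeq2 1.42.0, other scalings, filters, depth and cell minimums, clusterings, a replicate block and leaving out each plate were alternatives. Simulated data with known changes were run through the same steps. Levels are CPM with SD over plates, counting intervals are exact 95% Poisson or Clopper-Pearson intervals, and the floor is 3 UMIs. No p is given for the 5 genes. Members and lists were chosen with earlier results of these data known, the lists from general knowledge and not from values. Named from each list were up to 3 called genes with the smallest p in each direction of each comparison. Sequences are from RefSeq. A withheld item is not reported here.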

Additional observations from a re-analysis of the deposited data

Results flagged for a closer look

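In groups of 4 to 10 plates, a highest or lowest plate far from the others by Dixon's 95% criterion was found for 19 of 69 sets of levels. Of these 19, 7 rested on at most 3 UMIs. The criterion's nominal rate of 1 in 20 does not apply to sets of low counts that share plates and cells, so no chance rate is set beside this number.

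In macrophage-like cells, Spp1 of MI day 3 replicate 3 was lowest at 4354 CPM (nearest plate 8232). In fibroblast-like cells of IR day 3, replicate 4 was highest for Spp1 at 6377 CPM (nearest 423), Gpnmb at 1032 (81.0), Lgals3 at 410 (63.0) and Fabp5 at 1017 (102), the plate with the single cell described above. Fibroblast-like cells of IR day 1 replicate 3 were highest for Spp1 at 117 CPM (33.4) and Lgals3 at 123 (22.2), and replicate 7 had a Gpnmb level of 7.84 CPM from 1 UMI. Fibroblast-like Gpnmb of MI day 3 replicate 2 was 31.7 CPM (nearest 14.5).

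In endothelial-like cells, Spp1 of IR day 1 replicate 1 was 1744 CPM (nearest 149), and 122 of its 123 UMIs were in 1 cell with 45 macrophage-marker UMIs. Sham day 1 replicate 2 had Spp1 at 7.91 CPM, sham day 14 replicates 2 and 7, averaged as 1 plate, had Spp1 at 27.1 CPM, IR day 1 replicate 7 had Gpnmb at 5.51 CPM and sham day 1 replicate 4 had Gpnmb at 17.6 CPM, each the highest of its group. In cardiomyocyte-like cells, the highest plates were sham day 1 replicate 3 for Spp1 (14.9 CPM), the averaged sham day 14 plate for Spp1 (25.4 CPM), sham day 1 replicate 4 for Gpnmb (7.03 CPM) and for Lgals1 (148 CPM, nearest 138), and sham day 14 replicate 5 for Fabp5 (44.1 CPM).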

How the results depend on the processing

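Of 585 alternative values for the log2 differences of the 5 genes, 24 turned in direction, 15 of them where the difference was within 1 SE of 0 (Spp1, Lgals3 and Lgals1 in macrophage-like cells and Fabp5 in endothelial-like cells) and 9 where it was larger. These 9 are given next. In fibroblast-like cells of MI against IR day 3, Spp1 turned to 0.50 with cells thinned to 1000 UMIs, to 2.33 without the 1 cell (an alternative chosen after seeing the data), to 0.53 with the replicate block and to 2.11 without IR day 3 replicate 4. Lgals3 turned to 0.38 and 0.87, and Fabp5 to 1.04 and 0.94, without the cell and without that replicate. With 1 plate left out these ran from -1.37 to 2.11 for Spp1, -1.40 to 0.87 for Lgals3 and -2.49 to 0.94 for Fabp5. Fabp4 turned to 0.037 without the cell. In macrophage-like cells of MI against IR day 3, Fabp5 turned to 0.15 with the replicate block.

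The replicate block was fitted with only the groups compared, so it changes both choices at once. The count of genes called in macrophage-like IR day 3 against IR day 1 (1479) was 483 with only these groups in the fit, 196 with thinned cells and 153 with the replicate block, and 752 to 1729 with 1 plate left out. For MI against IR day 1 (491) it was 843 with no gene filter, 22 thinned and 10 with the block, and 215 to 769 with 1 plate left out. For MI against IR day 3 (915) it was 1543 with only these groups, 509 with plates of 5 cells, 153 thinned and 158 with the block, and 234 to 1016 with 1 plate left out. The fibroblast-like count (493) was 907 with no gene filter, 919 in DESeq2, 905 with only these groups, 1321 with plates of 10 cells, 140 thinned, 179 and 768 at clustering resolutions 0.5 and 2 and 248 with the block, and 232 to 672 with 1 plate left out. The endothelial-like count (1769) was 297 thinned, and 1416 to 1740 with 1 plate left out. The causes were not tested, and thinning leaves fewer UMIs by construction.

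Of 60 named list calls, 39 were kept without every single plate, 12 were lost with thinned cells and 27 with the replicate block. Same-numbered plates did not deviate together (correlations from -0.13 to 0.09), so the numbers are taken as names only. Leaving out cells with markers of another class was planned and not run, because too few plates with enough cells were left for these comparisons. Depth limits the zero counts of Spp1, Gpnmb and Lgals3 in sham cells, which are shallower than MI cells. Leaving out IR day 3 replicate 6, chosen after seeing the data, moved the macrophage-like IR day 3 mean of each of the 5 genes by less than the SD between plates.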

Other observations

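Wells that no marker list named also held the genes. The 226 unnamed wells of MI day 3, with a median of 1747 UMIs, held Spp1 at 4366 ± 1085 CPM and Lgals3 at 1788 ± 314 CPM (n = 5 plates), and their macrophage markers summed to 9170 CPM. Of their 6205 Spp1 UMIs, 3510 were in 23 wells and 2049 in 25 wells of a pair of clusters with 10 and 8 macrophage markers that stayed unnamed for their B cell markers, so most of this Spp1 came from a few deep wells. The 34 unnamed wells of IR day 3 held Spp1 at 4300 ± 3745 CPM (n = 2 plates), and their macrophage markers summed to 11466 CPM. Of their 705 Spp1 UMIs, 626 were in 9 wells of the first of these clusters. Of 755 Spp1 UMIs in the 4 mural-like cells of IR day 3, 752 were in a single cell that also held 639 macrophage-marker UMIs.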
